A study of Penicillium oxalicum with 18 samples.

Results

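The 3 genes described here are the locus tags that set each single hap deletion apart from every other library of the study, out of 9277 genes in the table. PDE_02832 was chosen by its FPKM values, being low in the hap3 deletion alone. PDE_02833, the next tag in number, was chosen for being seen in the hap3 deletion alone, and PDE_01016 for being low in the hap5 deletion alone. These values chose the genes, so they are given as a description with no test. The comparisons tested below are those that the choice did not fix: the level of each low tag in the deletion that it does not mark, the response to the carbon source, and the tags next in number.

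Penicillium oxalicum, a filamentous fungus, was studied as 3 strains, the wild type 114-2, a hap3 deletion strain and a hap5 deletion strain. All were precultured for 24 h at 30 °C on 2% glucose and then moved for 24 h to a modified Mendal's medium with either 2% glucose or 1% bran and 1% microcrystalline cellulose, the latter called bran-cellulose below. Each of the 6 combinations of strain and medium had 3 libraries, 18 in all. The labels do not state how the deletions were made or from how many transformants. They also leave unstated if the 3 replicates of a combination came from independent cultures, so every p-value refers to the spread of these libraries, which may be technical.

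Hap3 and Hap5 are the histone-fold subunits of the Hap complex, which regulates genes by binding CCAAT boxes of promoters. In yeast and in Aspergillus the histone-fold subunits first pair with each other, and Hap2 (HapB in Aspergillus) joins the pair before the complex can bind DNA, so loss of any one of these subunits removes binding. In Aspergillus nidulans the complex is known to repress the gene for its own HapB subunit. The table pairs its tags with no gene names, and 0 of its identifiers matched the reference gene table used here, which is of another strain, HP7-1, and has its own series of tags, so none of the 3 tags is named here as hap3, hap5 or any other gene.

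Levels are given as deposited by the authors, in FPKM, a unit that divides the fragments of a gene by its length and by the fragments mapped in the library. Library totals lay between 966280 and 1202683 FPKM, and the sequencing depth behind them is unknown. Replicate 2 of the hap3 deletion on glucose stood apart. It had the highest total, and its correlations across genes with the other libraries of its group were as low as 0.953, where all correlations within groups without it were between 0.972 and 0.986. Tests of PDE_01016 and PDE_02833 that rest on this library are given with and without it, while levels and neighbouring tags are given with it only.

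PDE_02832 was abundant in wild type and in the hap5 deletion. The wild type libraries on glucose were at 191.62, 134.38 and 194.05 FPKM, and those on bran-cellulose at 144.79, 154.16 and 156.64 FPKM. In the hap5 deletion it was at 256.36, 249.09 and 227.33 FPKM on glucose and at 206.37, 185.04 and 202.05 FPKM on bran-cellulose. The hap3 deletion libraries were at 8.93, 12.18 and 9.45 FPKM on glucose and at 10.57, 10.27 and 11.11 FPKM on bran-cellulose. All 6 libraries of the hap3 deletion lay below all other 12, with no overlap on either medium, but none was at 0. The mean that remained in the hap3 deletion was 5.88% of the wild type mean on glucose and 7.01% on bran-cellulose.

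PDE_01016 was about as abundant as PDE_02832 and fell to a lower remainder in the strain it marks. Wild type was at 135.89, 123.22 and 141.37 FPKM on glucose and at 124.94, 122.09 and 136.15 FPKM on bran-cellulose. The hap3 deletion was at 182.18, 226.15 and 175.29 FPKM on glucose and at 122.25, 123.52 and 118.83 FPKM on bran-cellulose. The hap5 deletion was at 1.49, 1.95 and 2.14 FPKM on glucose and at 1.54, 1.43 and 2.22 FPKM on bran-cellulose. The mean in the hap5 deletion was thus 1.39% of wild type on glucose and 1.35% on bran-cellulose, and again no library of that strain overlapped any other.

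PDE_02833 showed the opposite picture. It was listed at 0 in all 12 libraries of wild type and of the hap5 deletion, on both media. In the hap3 deletion it was at 19.31, 7.91 and 17.9 FPKM on glucose and at 21.72, 20.4 and 17.43 FPKM on bran-cellulose. The lowest of these, 7.91 FPKM, came from replicate 2 on glucose, the library that stood apart and the one with the highest PDE_02832 value of its strain. In 5 of the 6 hap3 deletion libraries PDE_02833 was higher than PDE_02832 on this per-length scale, the exception being that same replicate. An exact 0 in a table without counts can be a failed estimate, so no fold is given. PDE_02833 passed the filter on low values only through the libraries in which it was seen.

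**Figure D1:**
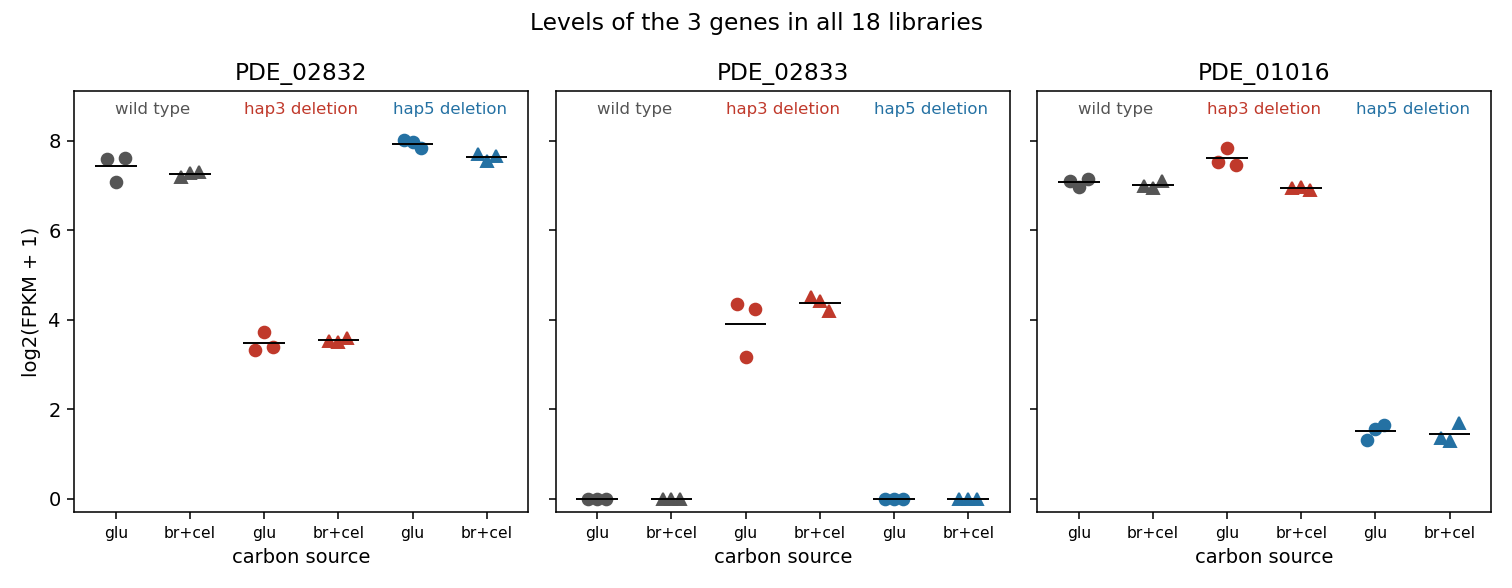
Levels of PDE_02832, PDE_02833 and PDE_01016 as log2(FPKM + 1) in each of the 18 libraries, by strain and carbon source (glu, glucose; br+cel, bran-cellulose); points are libraries and lines are means of 3. PDE_02832 was between 8.93 and 12.18 FPKM in the hap3 deletion, PDE_01016 between 1.43 and 2.22 FPKM in the hap5 deletion, and PDE_02833 was at 0 outside the hap3 deletion.

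In wild type both low tags were among the more abundant transcripts. PDE_02832 stood above 89.4% of the genes in the table on glucose and above 87.7% on bran-cellulose, and PDE_01016 above 86.7% and 85.2%. Within each wild type library the FPKM of PDE_02832 was 1.09 to 1.41 times that of PDE_01016, with a median of 1.21 over 6 libraries. If the libraries hold short tags, as the labels' protocols describe, division by gene length alters such ratios between genes. Outside the strain they mark, PDE_02832 ran from 134.38 to 256.36 FPKM and PDE_01016 from 118.83 to 226.15 FPKM. Both varied less there than most tested genes, but the choice itself kept low values out of these libraries. The standard deviation of log2(FPKM + 1) over the 12 libraries was 0.300 for PDE_02832 and 0.293 for PDE_01016, smaller values being found for 20.3% and 13.8% of the tested genes.

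PDE_02832 and PDE_02833 set the hap3 deletion apart by a wide margin, and PDE_01016 the hap5 deletion. The measure used here is the ratio between the nearest libraries: the lowest of the other 12 over the highest of the 6 for a low tag, and the reverse for a high one. This ratio was 11.0 for PDE_02832, and the gene next in order, PDE_07262, had a ratio of 1.30, with 39.88 FPKM in the highest hap3 deletion library and 51.82 FPKM in the lowest of the others. PDE_02431 followed with a ratio of 1.13. For the hap5 deletion the ratio was 53.5 for PDE_01016 and 1.03 for the next gene, PDE_00928, followed by PDE_01291 with 1.01. Of genes high in 1 deletion, PDE_02833 had no ratio because the others were at 0, and the next in order were PDE_05531 with 1.10 and PDE_00453 with 1.09. Among genes high in the hap5 deletion, where none was seen in that strain alone, PDE_06561 had a ratio of 1.18 and PDE_01273 of 1.08.

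Counted over the whole table, 7 genes were lower in the hap3 deletion than in all other libraries with no overlap (0.0755% of genes), and 4 were higher (0.0431%). In the hap5 deletion 3 were lower (0.0323%) and 6 higher (0.0647%). Wild type, set against both deletions in the same way, had 787 lower genes (8.48%) and 439 higher ones (4.73%). The members are counted in these numbers, which describe the pattern that chose them.

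**Figure D2:**
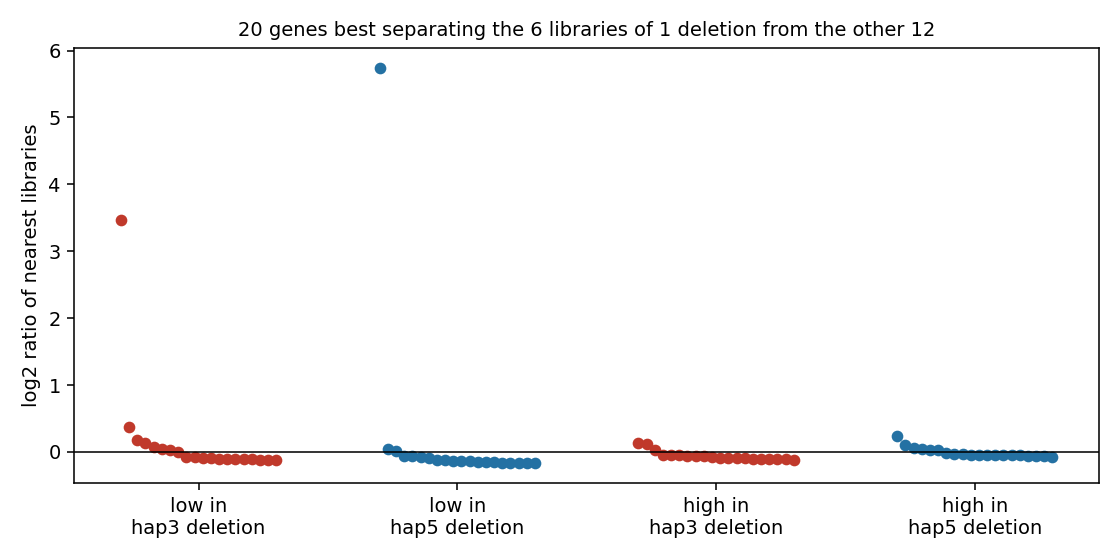
The 20 genes that best separate the 6 libraries of 1 deletion strain from the other 12, for low and for high patterns; the y axis is the log2 ratio of the nearest libraries, and values above 0 mean no overlap. PDE_02832 (ratio 11.0) and PDE_01016 (ratio 53.5) stand alone above genes with ratios of at most 1.30; PDE_02833 cannot be drawn, as the other 12 libraries were at 0.

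Whether the tag that marks one deletion changes in the other deletion was tested next. The choice of PDE_02832 required that it not be low in the hap5 deletion, and that of PDE_01016 that it not be low in the hap3 deletion, so a strong fall could not appear, and the sizes below are tested within that limit. Changes are differences of log2(FPKM + 1), fitted with limma over all 18 libraries and all tested genes, with p-values adjusted over all genes by the Benjamini-Hochberg method.

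PDE_02832 was higher in the hap5 deletion than in wild type on both media. On glucose its mean was 244 ± 15.1 FPKM (SD, n = 3) against 173 ± 33.8 FPKM in wild type, a ratio of 1.41, and the groups did not overlap. The log2 change was 0.51 (SE 0.13, limma adjusted p = 0.00285). On bran-cellulose the mean was 198 ± 11.3 FPKM against 152 ± 6.25 FPKM, a ratio of 1.30, again with no overlap, and the log2 change was 0.38 (SE 0.13, limma adjusted p = 0.0170). Over both media the change was 0.44 (SE 0.09, limma adjusted p = 0.000450), where 42% of tested genes rose at an adjusted p under 0.05. A 2-sided exact permutation test within media gave p = 0.005, the smallest that its 400 arrangements allow. Changes of this kind were common: on glucose 42% of tested genes rose at that threshold and on bran-cellulose 34.7%, and 34.3% and 34.4% of all tested genes had a larger log2 change than PDE_02832.

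Scaling mattered for the glucose value. The median log2 change of all tested genes was 0.24 on glucose and 0.04 on bran-cellulose, so PDE_02832 stood 0.27 and 0.34 above the median gene. With median-of-ratios scaling its glucose change was 0.26 (limma adjusted p = 0.130) and no longer passed the test, while the change on bran-cellulose was 0.37 (limma adjusted p = 0.0333). On bran-cellulose the change missed the threshold when replicate 1 of the hap5 deletion (0.35, limma adjusted p = 0.0554) or replicate 1 of wild type (0.34, limma adjusted p = 0.0562) was left out.

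PDE_01016 was higher in the hap3 deletion on glucose but not on bran-cellulose. On glucose its mean was 195 ± 27.6 FPKM against 133 ± 9.31 FPKM in wild type, a ratio of 1.46, with all hap3 deletion libraries above all wild type libraries. The log2 change was 0.53 (SE 0.12, limma adjusted p = 0.00136). On bran-cellulose the means were 122 ± 2.43 and 128 ± 7.43 FPKM, the groups overlapped, and the log2 change was -0.07 (SE 0.12, limma adjusted p = 0.633). Its 95% interval ran from -0.33 to 0.19, that is from 0.797 to 1.14 times the wild type level. At an adjusted p under 0.05, 38.1% of tested genes rose in the hap3 deletion on glucose and 35.5% on bran-cellulose, and on glucose 30.3% had a larger change than PDE_01016.

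The size of the glucose change of PDE_01016 rested partly on replicate 2 of the hap3 deletion, which was the highest at 226.15 FPKM. Without it the log2 change was 0.42 (limma adjusted p = 0.00614), with median-of-ratios scaling 0.39 (limma adjusted p = 0.0303), and with both 0.20 (limma adjusted p = 0.167), an alternative chosen after the data were seen. The median gene changed by 0.14 in the same comparison. Over both media the change was 0.23 (SE 0.09, limma adjusted p = 0.0248), beside 40.4% of tested genes that rose, and a 2-sided exact permutation test within media gave p = 0.09. Without replicate 2 the mean over media was 0.18 (limma adjusted p = 0.0575). It also missed the threshold without wild type replicate 2 on glucose (0.20, limma adjusted p = 0.0622) or on bran-cellulose (0.22, limma adjusted p = 0.0543).

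**Figure D3:**
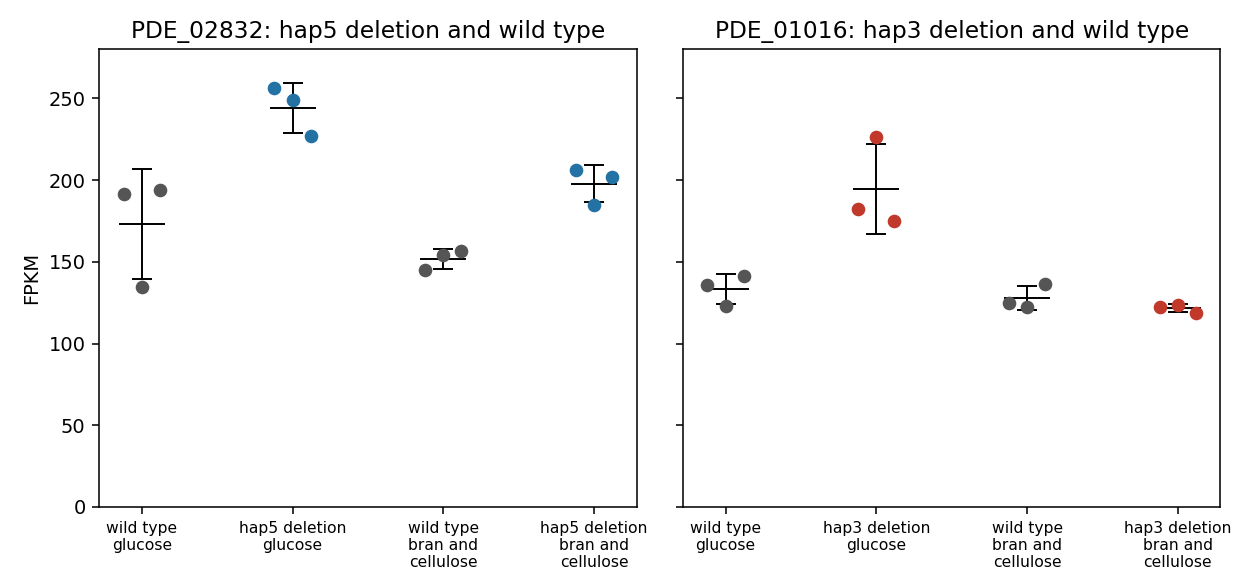
FPKM of PDE_02832 in wild type and the hap5 deletion (left) and of PDE_01016 in wild type and the hap3 deletion (right) on each carbon source; points are libraries, long bars are means and whiskers are SD over 3 libraries. The deletion libraries lie above wild type in 3 of the 4 comparisons, and overlap it for PDE_01016 on bran-cellulose.

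With the deposited scaling and all libraries, neither low tag passed the test between carbon sources in wild type. PDE_02832 changed by -0.17 between bran-cellulose and glucose (SE 0.13, limma adjusted p = 0.248, 95% interval -0.44 to 0.10). This value leaned on wild type replicate 2 on glucose, at 134.38 FPKM, and was -0.34 (limma adjusted p = 0.00975) without it. It also passed the test, at -0.32 (limma adjusted p = 0.0113), with median-of-ratios scaling and replicate 2 of the hap3 deletion on glucose left out. PDE_01016 changed by -0.06 (SE 0.12, limma adjusted p = 0.666, 95% interval -0.32 to 0.20). In the same comparison 70.8% of tested genes passed the test in either direction.

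In the hap3 deletion PDE_01016 fell on bran-cellulose, where its mean was 122 FPKM instead of 195 FPKM, with a log2 change of -0.67 (SE 0.12, limma adjusted p = 0.000159). Falls at an adjusted p under 0.05 were seen for 33.2% of tested genes there. Without replicate 2 on glucose the change was -0.55 (limma adjusted p = 0.000710). The response in the hap3 deletion differed from that in wild type by -0.60 (SE 0.17, limma adjusted p = 0.00752 for the interaction, which was negative past the threshold for 31.1% of tested genes), and by -0.50 (limma adjusted p = 0.0526) with median-of-ratios scaling. Without replicate 2 of the hap3 deletion on glucose the interaction was -0.49 (limma adjusted p = 0.0147), and with both alternatives it was -0.31 (limma adjusted p = 0.119).

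In the hap5 deletion PDE_02832 was lower on bran-cellulose than on glucose in every library, 185.04 to 206.37 against 227.33 to 256.36 FPKM. The log2 change was -0.30 (SE 0.13, limma adjusted p = 0.0509), just outside the threshold, where 34.7% of tested genes fell. The call depended on the estimate of spread: leaving out replicate 1 or 2 of the hap3 deletion on glucose, or any 1 of the wild type libraries on glucose, none of which enters this change, left it at -0.30 with limma adjusted p values of 0.0119 to 0.0487. Its interaction with the carbon source was -0.13 (SE 0.18, limma adjusted p = 0.560, 95% interval -0.52 to 0.25), turned to 0.11 with median-of-ratios scaling and to 0.04 without wild type replicate 2 on glucose.

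The remainders in the marked strains were also set against the carbon source. PDE_02832 in the hap3 deletion changed by 0.07 (SE 0.13, limma adjusted p = 0.646, 95% interval -0.20 to 0.34), but by -0.32 (limma adjusted p = 0.0721) after quantile normalization. It changed by -0.01 without replicate 1 on glucose and by 0.19 without replicate 2, the library that stood apart. PDE_01016 in the hap5 deletion changed by -0.07 (SE 0.12, limma adjusted p = 0.625), with a 95% interval of -0.33 to 0.19, and by -0.30 (limma adjusted p = 0.0455) after quantile normalization, which passed the test. PDE_02833 in the hap3 deletion had a mean of 15.0 ± 6.21 FPKM on glucose and 19.9 ± 2.20 FPKM on bran-cellulose, a log2 change of 0.46 (SE 0.23, limma adjusted p = 0.0793). Without replicate 2 on glucose this was 0.08 (limma adjusted p = 0.542). Without replicate 1 on glucose it was 0.68 (limma adjusted p = 0.0165), and without replicate 3 it was 0.63 (limma adjusted p = 0.0339). The estimate of spread for PDE_02833 included the wild type and hap5 deletion libraries, which were all at 0 and did not vary. Its SE and p-values are therefore too small, and neither of these values is read as a response.

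Ordered by mean, PDE_02832 was highest in the hap5 deletion on glucose, then in the hap5 deletion on bran-cellulose, wild type on glucose and wild type on bran-cellulose. The hap5 deletion on bran-cellulose and wild type on glucose overlapped, as did the wild type groups with each other. PDE_01016 was highest in the hap3 deletion on glucose, whose libraries overlapped no other group. The other 3 groups with high PDE_01016, wild type on glucose, wild type on bran-cellulose and the hap3 deletion on bran-cellulose, had means between 122 and 133 FPKM. Wild type libraries of the 2 media overlapped each other, as did wild type and the hap3 deletion on bran-cellulose.

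The tags next in number were then examined, as numbers of a locus tag series usually follow the order along a chromosome, although no map was used here. Within 10 numbers of PDE_02832 the table held 17 tags other than the members, all of them tested, and within 10 numbers of PDE_01016 it held 20, of which 19 were tested. PDE_01014, between 0.04 and 1.46 FPKM, missed the filter. A tag is called when the adjusted p is under 0.05 and the log2 value moved by 1 or more in either direction. Both deletions are compared with the same wild type libraries, so values for them are set side by side only.

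Of the immediate neighbours, PDE_02831, PDE_01015 and PDE_01017 were not called in any of the 4 comparisons of a deletion with wild type. PDE_02831, the tag before PDE_02832, was at 219 ± 5.70 FPKM in the hap3 deletion on glucose against 167 ± 10.3 FPKM in wild type, a log2 change of 0.39 (SE 0.10, limma adjusted p = 0.00507). In the hap5 deletion its change on glucose was 0.26 (SE 0.10, limma adjusted p = 0.0434), and on bran-cellulose the changes were 0.41 and 0.36 in the hap3 and hap5 deletions. These changes were below the log2 change of 1 needed for a call. The median change of all tested genes on glucose was 0.14 in the hap3 and 0.24 in the hap5 deletion. The hap5 deletion value of PDE_02831 on glucose was thus close to that of the median gene. On bran-cellulose the medians were 0.05 and 0.04.

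PDE_02834, the tag after PDE_02833, fell in the hap3 deletion on glucose, with 5.16 ± 1.04 FPKM against 12.1 ± 0.482 FPKM in wild type and a log2 change of -1.10 (SE 0.13, limma adjusted p = 3.55e-06). In the hap5 deletion it was at 6.69 ± 0.301 FPKM on glucose, a change of -0.77 (limma adjusted p = 0.000127). On bran-cellulose the hap3 deletion had 15.5 ± 2.01 FPKM of it and wild type 15.2 ± 2.33 FPKM, a change of 0.03 (limma adjusted p = 0.873). PDE_02834 was thus not called higher on either medium in the strain in which PDE_02833 was seen.

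Beside PDE_01016, PDE_01015 was at 51.3 ± 5.63 FPKM in the hap5 deletion on glucose against 31.0 ± 4.19 FPKM in wild type, a log2 change of 0.71 (SE 0.12, limma adjusted p = 0.000150). Its change in the hap3 deletion on glucose was 0.32 (limma adjusted p = 0.0383), and on bran-cellulose it was 0.33 in the hap5 and 0.45 in the hap3 deletion. PDE_01017 did not pass the test in the hap5 deletion on either medium, with 0.19 (SE 0.29, limma adjusted p = 0.612) on glucose and -0.58 (SE 0.29, limma adjusted p = 0.0985) on bran-cellulose. On bran-cellulose its hap5 deletion libraries, at 32.94 to 36.27 FPKM, nevertheless all lay below wild type, at 49.42 to 57.05 FPKM. The SE is shared by all groups, including the hap3 deletion on glucose at 49.0 ± 25.1 FPKM, where replicate 2 was at 20.67 FPKM. In the hap3 deletion PDE_01017 fell on bran-cellulose by 0.78 (limma adjusted p = 0.0299), from 52.8 ± 3.90 to 30.5 ± 4.63 FPKM.

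Around PDE_02832 the hap3 deletion had 3 higher and 3 lower tags on glucose, 6 of 17, where 24.1% of all tested genes were called. On bran-cellulose it again had 3 and 3, against 30.1% of all tested genes. The hap5 deletion had 2 higher and 2 lower tags on glucose (24.6% of all tested genes) and 3 and 3 on bran-cellulose (29.6%). The shares among the neighbours were 23.5% for the hap5 deletion on glucose and 35.3% for the other comparisons.

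PDE_02824, 8 numbers before PDE_02832, had the largest change of this group. It was at 144 ± 7.49 FPKM in wild type on bran-cellulose and at 1.41 ± 0.0866 FPKM in the hap3 and 1.64 ± 0.101 FPKM in the hap5 deletion, log2 changes of -5.91 and -5.78 (SE 0.13 each). On glucose it fell from 30.6 ± 5.02 FPKM to 3.81 ± 0.687 and 5.48 ± 0.662 FPKM. PDE_02823 and PDE_02826 rose in both deletions on both media. PDE_02823 went from 13.5 ± 0.411 FPKM in wild type on glucose to 78.7 ± 3.10 FPKM in the hap3 and 88.4 ± 1.12 FPKM in the hap5 deletion, and PDE_02826 from 6.68 ± 0.691 to 25.8 ± 0.793 and 31.1 ± 3.42 FPKM.

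PDE_02842 fell in both deletions on both media, on glucose from 596 ± 23.2 FPKM to 166 ± 35.2 FPKM in the hap3 and 198 ± 14.0 FPKM in the hap5 deletion. PDE_02829 was called higher in the hap3 deletion on both media, with log2 changes of 1.25 and 1.06, and in the hap5 deletion on bran-cellulose, with 1.22. Its change in the hap5 deletion on glucose was 0.97 (limma adjusted p = 2.96e-08), just short of a call. PDE_02828 was called lower in the hap3 deletion on bran-cellulose (-1.49) and PDE_02837 in the hap5 deletion on the same medium (-1.02). In the other deletion both also fell there, by less than a call needs. PDE_02828 changed by -0.87 in the hap5 deletion (limma adjusted p = 0.0128) and PDE_02837 by -0.89 in the hap3 deletion (limma adjusted p = 1.87e-06).

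Around PDE_01016 the called tags were 3 of 19 in the hap3 deletion on each medium, 3 in the hap5 deletion on glucose and 2 on bran-cellulose. These shares were 15.8% and 10.5%. In the hap3 deletion 24.1% of all tested genes were called on glucose and 30.1% on bran-cellulose. The hap5 deletion had 24.6% and 29.6%. For both windows the difference from the background was not tested. PDE_01021 and PDE_01020 fell in both deletions on bran-cellulose. PDE_01021 was at 1206 ± 202 FPKM in wild type there, at 22.5 ± 1.61 FPKM in the hap3 and at 30.6 ± 3.78 FPKM in the hap5 deletion, log2 changes of -5.67 and -5.25 (SE 0.14 each). PDE_01020 went from 188 ± 31.2 FPKM to 22.1 ± 0.921 and 22.0 ± 0.583 FPKM.

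On glucose PDE_01018 rose in both deletions, with 52.3 ± 2.21 FPKM in wild type, 130 ± 11.7 FPKM in the hap3 and 239 ± 8.45 FPKM in the hap5 deletion, and PDE_01025 from 29.9 ± 2.82 FPKM to 104 ± 13.1 and 96.3 ± 13.6 FPKM. PDE_01023 fell on glucose by 1.51 in the hap3 and by 1.01 in the hap5 deletion on the log2 scale. PDE_01022 was called in the hap3 deletion on bran-cellulose, with a log2 change of 1.12. In the hap5 deletion it changed by 0.91 on that medium (limma adjusted p = 7.50e-06), just short of a call.

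**Figure D4:**
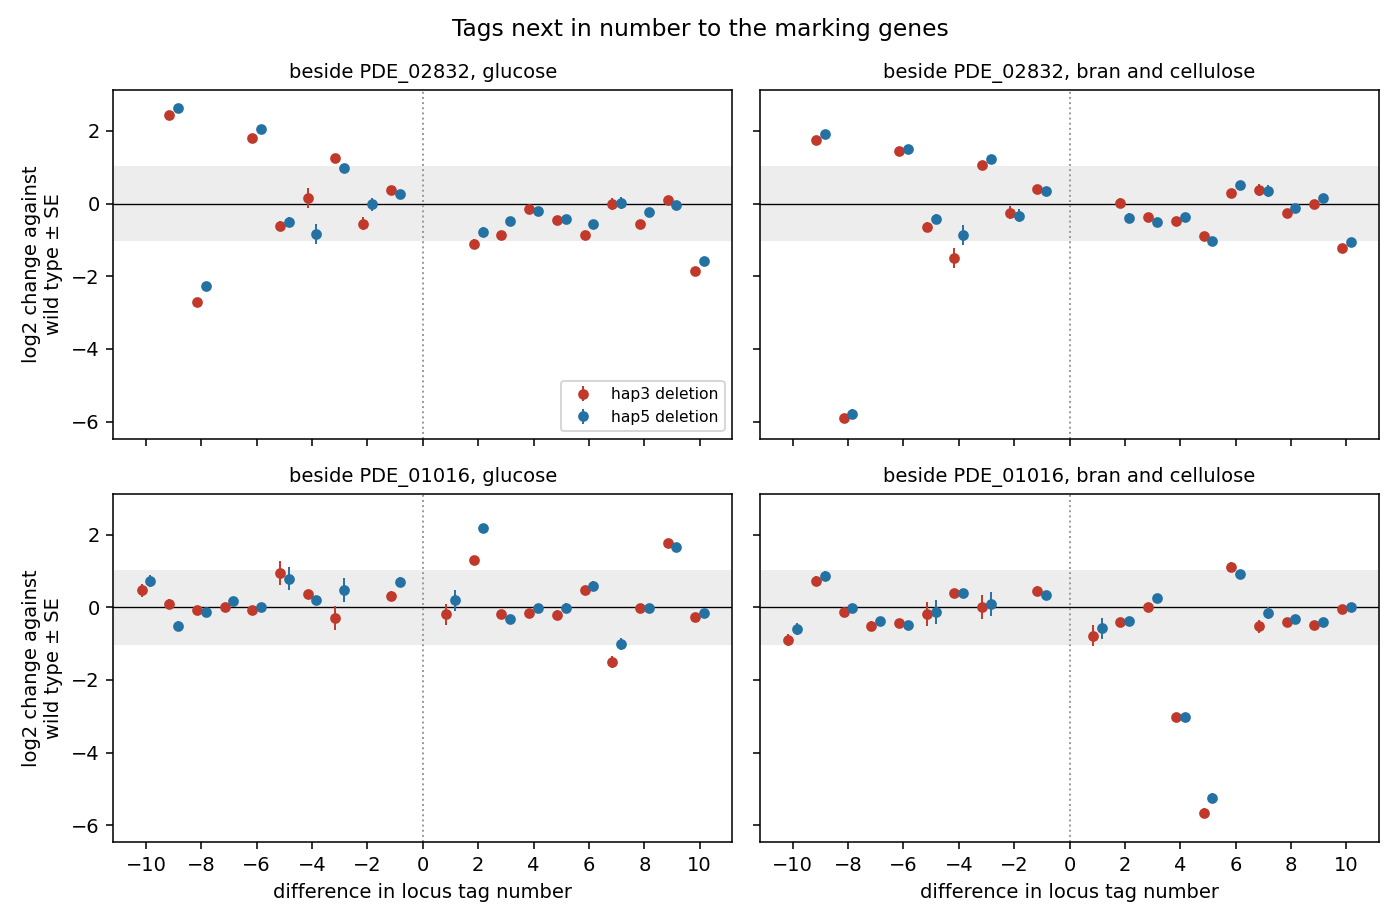
Log2 change against wild type (± SE of the limma fit) of tags within 10 numbers of PDE_02832 (top) and PDE_01016 (bottom), on glucose (left) and on bran-cellulose (right), in the hap3 deletion (red) and the hap5 deletion (blue). The dotted line marks the member, members are left out, and the grey band spans changes under 1; the lowest points are PDE_02824 at -5.91 and PDE_01021 at -5.67 on bran-cellulose.

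The genes whose pattern was most like each member were ranked by Pearson correlation of log2(FPKM + 1) over the 18 libraries. Strain and medium are shared by all genes, and the values include those that chose the members, so this is a description only. For PDE_02832 the genes most alike were PDE_05414 (r = 0.743), PDE_01913 (r = 0.741) and PDE_07262 (r = 0.721). PDE_05414 was between 313.57 and 406.38 FPKM in the hap3 deletion and between 447.49 and 779.08 FPKM elsewhere, a far smaller step than that of PDE_02832. For PDE_02833 they were PDE_00453 (r = 0.747), PDE_05010 (r = 0.731) and PDE_05089 (r = 0.723), and for PDE_01016 PDE_05391 (r = 0.715), PDE_05971 (r = 0.703) and PDE_01126 (r = 0.682). PDE_00453 was between 3.91 and 5.33 FPKM in the hap3 deletion and between 2.13 and 3.59 FPKM elsewhere. The ranges of PDE_05010, PDE_05089, PDE_05391, PDE_05971 and PDE_01126 overlapped between the marked strain and the other libraries. PDE_05391, for example, was between 4.79 and 8.68 FPKM in the hap5 deletion and between 7.54 and 16.54 FPKM elsewhere.

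Over the 12 libraries outside the marked strain the ranking named other genes. PDE_00952 (r = 0.949), PDE_03674 (r = 0.945) and PDE_02896 (r = 0.935) came first for PDE_02832. For PDE_01016 they were PDE_06997 (r = 0.972), PDE_05580 (r = 0.968) and PDE_05596 (r = 0.964). PDE_06997 ran from 276.0 to 497.58 FPKM over these libraries, while PDE_01016 ran from 118.83 to 226.15 FPKM. PDE_00952 was near the floor, from 0 to 8.88 FPKM, while PDE_02832 ran from 134.38 to 256.36 FPKM.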

How the data were processed

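The authors deposited 1 table of FPKM values, per the file headers, 1 column per library. Per the labels' protocols NlaIII and MmeI digestion gave short tags at CATG sites, whereas FPKM divides by gene length. For tag libraries this changes levels between genes but not the ratio of 1 gene between libraries. The labels name no aligner, quantifier, genome build, annotation or strand setting, so values of genes that overlap or have close copies are uncertain. Columns were matched to titles by strain, replicate number and the G of the glucose medium, with the other medium by elimination, and 0 columns were left unmapped.

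A gene entered the fit if 3 or more libraries had 1 FPKM or more (8681 of 9277, all 3 members among them). Group means of log2(FPKM + 1), a scale that understates changes of low genes, were modelled over all 18 libraries (R 4.3.3, limma 3.58.1, intensity trend), and the fit was tested on simulated data. The members, the lists and the tests were chosen with earlier results of these data known. Named tags are the members, called or immediate neighbours within 10 numbers, the 3 genes most like each member and the 2 next in separation. PDE_01014, as the tag that missed the filter, was named outside this rule.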

Additional observations from a re-analysis of the deposited data

Results flagged for a closer look

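The response of PDE_01016 to the carbon source differed between the hap3 deletion and wild type, by -0.60 on the log2(FPKM + 1) scale (SE 0.17, limma adjusted p = 0.00752 for the interaction, 3 libraries per group). It fell from 195 ± 27.6 to 122 ± 2.43 FPKM in the hap3 deletion and was at 133 ± 9.31 and 128 ± 7.43 FPKM in wild type. At an adjusted p under 0.05, 31.1% of tested genes had a negative interaction. The highest hap3 deletion value on glucose came from the library that stood apart, and without it the interaction was -0.49 (limma adjusted p = 0.0147). With median-of-ratios scaling it was -0.50 (limma adjusted p = 0.0526), and with both alternatives -0.31 (limma adjusted p = 0.119), so the call was lost in these 2 cases.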

How the results depend on the processing

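PDE_02832 kept a positive change in the hap5 deletion on each medium, and PDE_01016 in the hap3 deletion on glucose, under every alternative run. Leaving out each library in turn gave 0.34 to 0.60 and 0.34 to 0.43 for PDE_02832 on glucose and on bran-cellulose. For PDE_01016 it gave 0.18 to 0.27 over both media. The mean of PDE_01016 over both media also missed the threshold with a pseudocount of 0.1 (0.23), median-of-ratios scaling (0.14) and quantile normalization (0.17). Median-of-ratios scaling lowered the PDE_02832 change on glucose to 0.26 and the PDE_01016 interaction to -0.50, and turned the PDE_02832 interaction to 0.11. Combined with leaving out replicate 2 of the hap3 deletion on glucose, an alternative chosen after the data were seen, it gave PDE_01016 changes of 0.20 on glucose and 0.048 over both media, an interaction of -0.31, and -0.32 for PDE_02832 between media in wild type, which then passed the threshold. It turned the PDE_02832 interaction to 0.11 as well.

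Between media, PDE_02832 in the hap5 deletion passed the threshold with a filter of 5 FPKM or a fit on the compared groups only (-0.30 in both) and without any 1 of 5 glucose libraries of the other strains (-0.30 in each), and ranged from -0.35 to -0.26 over left-out libraries. In wild type that range was -0.34 to -0.080, in the hap3 deletion -0.011 to 0.19, and for the interaction -0.22 to 0.041. Quantile normalization turned PDE_02832 in the hap3 deletion to -0.32 and brought PDE_01016 in the hap5 deletion to -0.30, past the threshold, where left-out libraries gave -0.20 to 0.0067. PDE_02833 ranged from 0.084 to 0.68. The cause of these shifts was not tested.

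A window of 5 tags held 2, 2, 0 and 2 called neighbours of PDE_02832 (hap3 deletion on glucose and on bran-cellulose, then hap5 deletion). Around PDE_01016 it held 1 on glucose in each deletion, and PDE_01020 and PDE_01021 on bran-cellulose in each deletion. Of all tested genes 24.1%, 30.1%, 24.6% and 29.6% were called, in the same order of comparisons. With no minimum change the counts were 13, 12, 12 and 13 of 17 tested tags for PDE_02832. For PDE_01016 they were 9, 14, 9 and 13 of 19. At that rule 38.1%, 35.5%, 42% and 34.7% of all tested genes rose, in the same order of comparisons. The share of all tested genes that fell is not given here, so these counts are not set against the background.

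The replicate numbers gave no clear pairing of the libraries. Deviations of same-numbered libraries correlated at over 0.1 in 1 of 45 pairs, at 0.20, and 9 of 18 libraries correlated best with their own number. These values were not tested against chance, so a weak pairing is undecided. The replicate block left every call of the members on its side of the threshold (0.53 for PDE_01016 on glucose, limma adjusted p = 0.00181). Depth is unknown, so no counting interval is given for values near 0.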
